A study of Mus musculus with 20 samples.

Results

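Immediate early genes are the genes that cells transcribe within minutes of a stimulus, before any new protein is made. The 38 genes described here comprise classical immediate early transcription factors together with the feedback inhibitors, stress genes and activation markers that are induced with them. They were taken by symbol from a list, and measured values enter the rule only in the choice of 1 probe set per gene. The list was chosen with earlier results of these data known, so the counts below describe the list and do not test it. All 38 were found among 18194 genes with a probe set of their own, each gene being read from the brightest of its probe sets over the 20 arrays, and all 38 were among the 13479 genes tested.

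All cells were sorted from bone marrow, and the mice were 8 to 14 weeks old. From wild-type C57bl/6 mice came 2 arrays each of HSC (hematopoietic stem cells), MPP (multipotent progenitors), LMPP (their lymphoid-primed successors), pro-B cells and CD4 T cells, and 3 arrays each of CLP (common lymphoid progenitors) and GMP (granulocyte-monocyte progenitors). The natural killer (NK) cells were mature ones of 129 strain animals, all of them without Rag2, a gene needed to rearrange antigen receptors, so that B and T cells are missing. These mice either carried Ets1 (Ets1++, n = 2) or were deficient for it (Ets1--, n = 2). The study set out to find genes that depend on Ets1, a transcription factor, in NK cells. The labels do not say whether replicate arrays came from separate animals, so a p-value here reflects array-to-array spread only, and that spread may be technical. Between NK cells and every other population, cell type, strain and Rag2 deficiency cannot be told apart. In sorted bulk samples, fewer cells of a type and less RNA per cell cannot be told apart.

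Most immediate early genes are switched on by factors already present in the resting cell. MAP kinase signalling activates serum response factor and its partners on CArG boxes, cyclic AMP and calcium signalling activate CREB on cyclic AMP response elements, and inflammatory receptors activate NF-kB. The first products include the AP-1 proteins of the FOS and JUN families, the zinc finger factors of the EGR and KLF families and the orphan nuclear receptors of the NR4A family. Other products shut the response down: dual specificity phosphatases inactivate MAP kinases, IkB proteins and TNFAIP3 restrain NF-kB, and ZFP36 binds the short-lived messenger RNAs and speeds their decay. In blood-forming tissue several of these genes have roles in resting cells. EGR1 and NR4A factors restrain the division of stem cells, and KLF2 keeps naive T cells quiescent and recirculating.

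Levels are given as log2 intensity of the deposited values and differences as log2 units with the standard error (SE) of the model. A difference was called at an adjusted p below 0.05. Array medians lay between 3.78 and 4.04, and replicate arrays correlated at 0.918 to 0.997. Markers of stem cells, early lymphoid cells, myeloid cells, B cells, T cells and NK cells had their highest mean level in HSC, CLP, GMP, pro-B cells, CD4 T cells and NK cells respectively, the populations the labels name. The arrays differed in the actin 3' minus 5' signal, a measure of how far the labelled RNA reached from the 3' end. It was 1.88 to 2.66 in HSC, MPP and LMPP, 0.97 and 1.23 in CD4 T cells, 2.07 and 3.11 in pro-B cells, 2.76 to 4.07 in NK cells, 5.20, 3.26 and 5.27 in CLP arrays 1, 2 and 3, and 6.44 to 6.68 in GMP.

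The mean level of the 38 genes was highest in HSC, MPP and LMPP. Averaged over the 38 genes, the level was 8.99 and 8.12 on the HSC arrays, 8.20 and 8.54 in MPP and 8.79 and 8.41 in LMPP. It was 7.57 and 7.19 in CD4 T cells, 6.67 to 6.85 in NK cells, 6.36 and 6.44 in pro-B cells, 6.11, 6.13 and 6.33 in CLP and 5.90 to 5.98 in GMP. The 6 stem and multipotent progenitor arrays lay above the other 14 arrays. CLP and GMP, with the lowest means, were also the populations with the largest actin differences, whose part in the result was not tested. The pro-B arrays, with actin differences of 2.07 and 3.11, had means of 6.36 and 6.44.

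**Figure D1:**
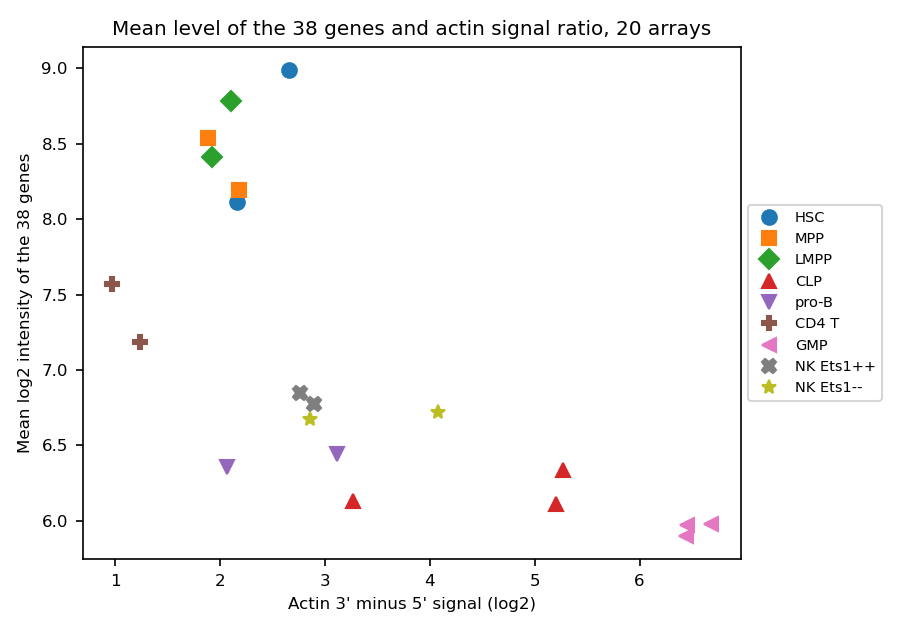
Mean log2 intensity of the 38 genes (vertical axis) against the actin 3' minus 5' signal in log2 units (horizontal axis), 1 point per array with a symbol for each of the 9 groups. The 6 arrays of HSC, MPP and LMPP lie at 8.12 to 8.99 with actin differences of 1.88 to 2.66, while the pro-B arrays lie at 6.36 and 6.44 with actin differences of 2.07 and 3.11. The GMP arrays lie at 5.90 to 5.98 with actin differences of 6.44 to 6.68.

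For 14 of the 38 genes every HSC, MPP and LMPP array lay above every other array, against 289 of all 13479 genes tested (2.14%). These 14 were Fos, Fosb, Jun, Junb, Maff, Egr1, Nr4a1, Klf6, Ier2, Dusp1, Zfp36, Ier3, Ppp1r15a and Rgs1. For 19 genes, which add Atf3, Klf4, Csrnp1, Tnfaip3 and Rgs2, these were the 3 groups of highest mean, against 856 of all genes (6.35%). Without the 3 GMP arrays and CLP arrays 1 and 3, an alternative chosen after seeing the data, the first count was 17 of 38, against 532 of 13479 (3.95%). The highest group mean was in LMPP for 14 genes, in HSC for 9, in MPP for 4, in CD4 T cells for 4, in CLP, NK Ets1++ and NK Ets1-- cells for 2 each, in GMP for 1 and in pro-B cells for none. The lowest mean was in GMP for 13 genes. The F test over the 9 groups called 37 of the 38 genes, where 78.0% of all genes tested were called. The exception was Egr3, a zinc finger factor induced by T cell receptor signalling, whose group means differed by at most 0.45 (adjusted p = 0.906) on its brighter probe set. Its other probe set varied widely between groups, as described with the EGR genes, and with the mean of probe sets the F test called all 38.

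**Figure D2:**
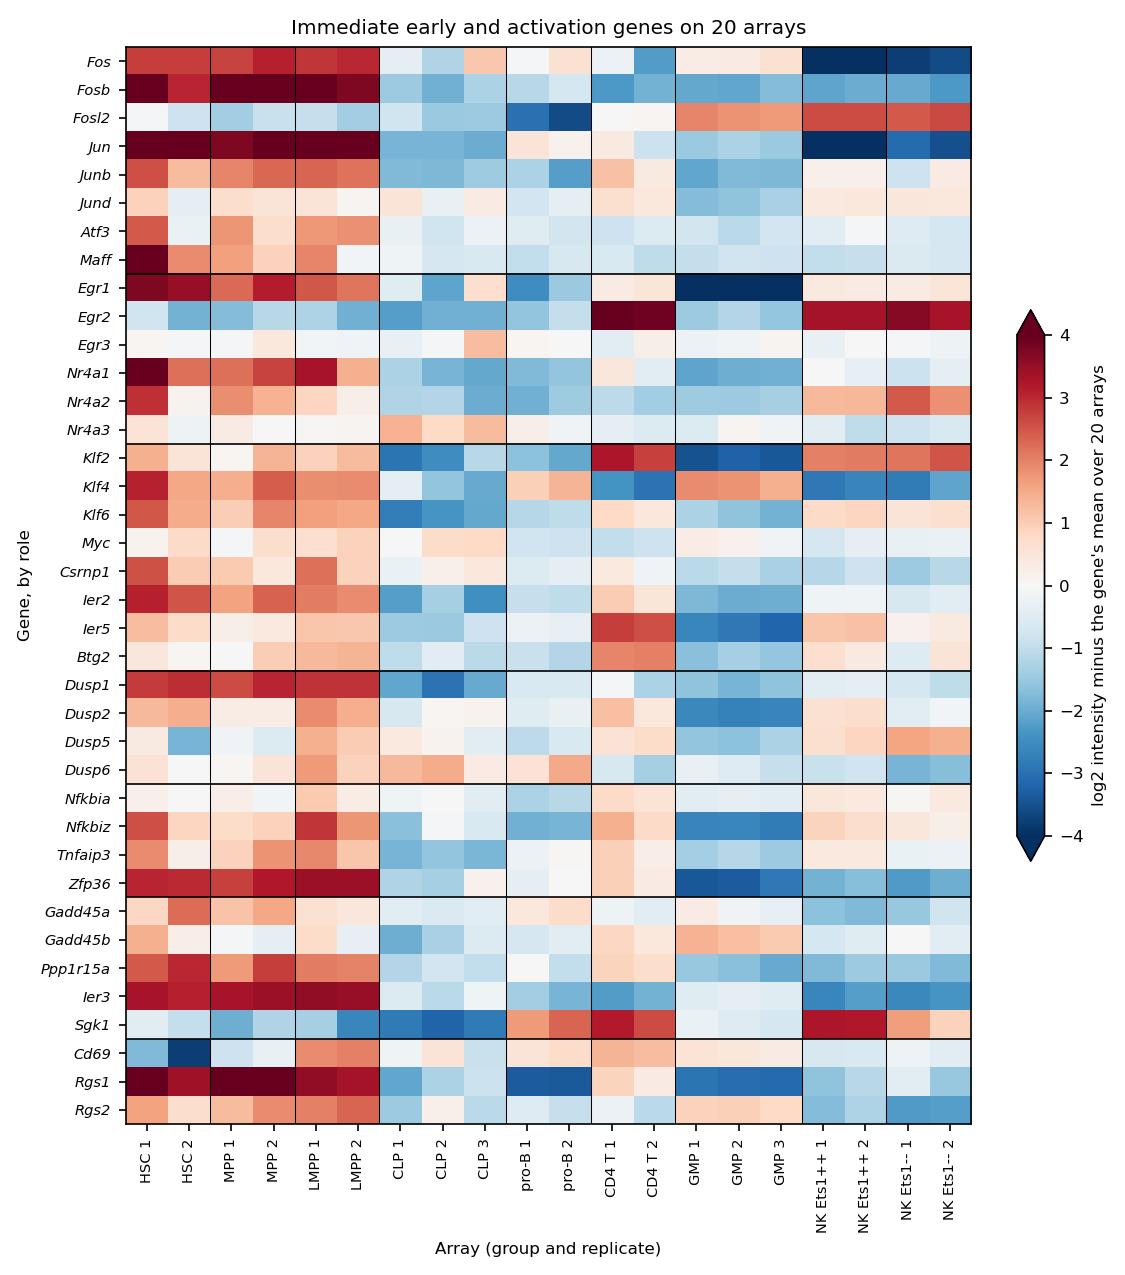
Heat map of the 38 genes (rows, grouped by role) on the 20 arrays (columns, by group and replicate), coloured by log2 intensity minus the gene's mean over the 20 arrays, with colours saturating at 4 log2 units. Fos, Fosb, Jun, Dusp1, Zfp36, Ier3 and Rgs1 are red on all 6 HSC, MPP and LMPP arrays, while Egr2, Klf2, Ier5 and Sgk1 are red in CD4 T cells.

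Promoter stretches of 5 genes are shown because these fell together from LMPP to CLP and GMP on the probe sets used. Each was also chosen for matches to motifs of the pathways above. A match is a description and not a known site. RefSeq promoter sequences (GRCm38.p6) were matched for 31 of the 38 genes and searched on both strands over the 250 bases before the transcription start. Egr1, Egr3, Ier2, Myc, Rgs1, Nfkbiz and Cd69 had no sequence available and were not searched. Capitals mark the matches shown: TGACG, the core of the cyclic AMP response element, and TATAAA in Fos; TGACGTCA, the full palindrome that contains TGACG, in Dusp1, Btg2 and Ppp1r15a, with another TGACG in Dusp1; and the CArG box in Zfp36. They lie at chr12:85473740-85473889 (+ strand) for Fos, chr17:26508533-26508682 (- strand) for Dusp1, chr1:134079196-134079345 (- strand) for Btg2, chr7:45526269-45526418 (- strand) for Ppp1r15a and chr7:28379229-28379378 (- strand) for Zfp36. Each is written 5' to 3' on the strand of its gene.
Fos: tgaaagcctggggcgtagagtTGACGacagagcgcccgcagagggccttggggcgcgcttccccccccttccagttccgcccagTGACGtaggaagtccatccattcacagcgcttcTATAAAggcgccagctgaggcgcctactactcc
Dusp1: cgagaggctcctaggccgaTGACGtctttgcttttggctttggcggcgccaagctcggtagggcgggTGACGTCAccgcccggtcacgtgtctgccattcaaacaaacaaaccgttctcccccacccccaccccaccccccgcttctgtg
Btg2: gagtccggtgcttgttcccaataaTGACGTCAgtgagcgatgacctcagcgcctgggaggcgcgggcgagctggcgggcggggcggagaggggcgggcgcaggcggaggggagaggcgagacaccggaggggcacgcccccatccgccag
Ppp1r15a: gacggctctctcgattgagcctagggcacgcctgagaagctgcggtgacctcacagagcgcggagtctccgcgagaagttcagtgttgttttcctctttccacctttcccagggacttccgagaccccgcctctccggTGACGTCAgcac
Zfp36: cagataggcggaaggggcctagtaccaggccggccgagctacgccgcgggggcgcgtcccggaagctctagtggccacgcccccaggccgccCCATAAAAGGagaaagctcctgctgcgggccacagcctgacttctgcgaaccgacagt

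In Fos the TATAAA began 33 bases before the start and the nearer TGACG 66 bases before it. TGACG was present in 16 of the 31 promoters (51.6%), against 17.9% of all 27025 promoters of the table. The 16 were those of Fos, Fosb, Junb, Atf3, Nr4a1, Nr4a2, Nr4a3, Klf2, Klf4, Btg2, Csrnp1, Dusp1, Dusp5, Tnfaip3, Ppp1r15a and Rgs2. Nr4a1, Nr4a2 and Nr4a3 each held 4 copies. The palindrome TGACGTCA was found in 3 (9.68%, against 1.62%), the CArG box in Dusp5 and Zfp36 (6.45%, against 1.40%) and an NF-kB motif in 7 (22.6%, against 7.01%). Those 7 were Fos, Fosb, Fosl2, Egr2, Nfkbia, Tnfaip3 and Ier3. TATAAA was in 4 (12.9%, against 13.0%), and the AP-1 motif TGANTCA was in 1, that of Tnfaip3 (3.23%, against 6.87%). The ETS motif CCGGAAGT and the EGR motif GCGTGGGCG were in none of the 31 windows, against 2.93% and 0.54% of all promoters. The 31 windows were richer in G and C than the table, with a median of 64.4% against 52.0%, and held a median of 19 CpG dinucleotides against 6, whose part in the motif counts was not tested. TGACG was in 6 of the 11 promoters of genes whose HSC, MPP and LMPP arrays all lay above the rest, and in 10 of the other 20.

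CLP arise from LMPP on the lymphoid path and GMP on the myeloid path. From LMPP to CLP 30 of the 38 genes fell and 1 rose, where 19.2% of all genes tested were called down and 6.96% up. From LMPP to GMP 29 fell and 2 rose, where 13.0% were called down and 16.0% up. The median difference of the 38 genes was -2.29 in CLP and -2.70 in GMP, against -0.08 and -0.04 over all genes. The arrays of the groups did not overlap for 32 genes in CLP, against 46.3% of all genes tested, and for 34 in GMP, against 69.5%. These comparisons share the LMPP arrays. CLP array 2, whose actin difference of 3.26 was the smallest of the 3, gave 23 falls and no rise when it stood alone for CLP. Pro-B cells against LMPP was a comparison added after seeing the data. It gave 28 falls and 1 rise, where 10.3% of all genes were called down and 6.91% up. The arrays of pro-B cells and LMPP did not overlap for 34 genes, against 59.6% of all genes. The comparison was chosen for its actin differences of 2.07 and 3.11 against 2.10 and 1.92, the closest among populations outside HSC, MPP and LMPP. The same signal difference for Gapdh was 1.98 and 2.79 in pro-B cells and 2.78 and 2.36 in LMPP. In CD4 T cells it was 2.40 and 2.54, both between the LMPP values. The part of either measure in the falls was not tested. The largest falls to pro-B cells were those of Rgs1, Ier3 (-5.15 ± 0.30), Fosb (-4.90 ± 0.43), Egr1 (-4.30 ± 0.56), Nfkbiz (-4.20 ± 0.50), Nr4a1 (-4.02 ± 0.56), Junb (-3.98 ± 0.42), Jun, Zfp36 (-3.61 ± 0.39) and Dusp1, and the other 18 fell by 1.36 to 2.94. Cd69 (-1.31 ± 0.47), Jund (-0.87 ± 0.35) and Gadd45b (-0.76 ± 0.43) were the largest of the 9 not called. Centred on housekeeping genes, which moved the median of all genes to 0.70 in CLP minus LMPP, 24 genes fell and 2 rose in that comparison.

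Some of these calls depended on 1 array. In CLP minus LMPP they were those of Dusp5 (without LMPP 1 or LMPP 2 or CLP 3, -0.94 to -1.39), Nr4a2 (without LMPP 1, -1.67), Nr4a3 (without LMPP 1 or LMPP 2, 1.04 to 1.12), Gadd45a (without LMPP 1 or LMPP 2 or CLP 1, -0.95 to -1.11), Gadd45b (without LMPP 1 or CLP 1, -0.96 to -1.14), Nfkbia (without LMPP 1, -0.51), Csrnp1 (without LMPP 1 or CLP 1, -0.82 to -1.25) and Sgk1 (without LMPP 1 or CLP 1 or CLP 2 or CLP 3, -0.35 to -1.06). In GMP minus LMPP they were those of Nr4a2 (without LMPP 1, -1.61), Rgs2 (without LMPP 1 or LMPP 2 or GMP 3, -1.13 to -1.45), Nfkbia (without LMPP 1, -0.75), Cd69 (without LMPP 1 or LMPP 2, -1.44 to -1.57), Maff (without LMPP 1, -0.76) and Sgk1 (without LMPP 2, 0.82). In pro-B cells minus LMPP they were those of Dusp5 (without LMPP 1, -1.85), Nr4a2 (without LMPP 1 or pro-B 1, -1.90 to -1.96), Tnfaip3 (without LMPP 1 or pro-B 1, -1.21 to -1.46), Maff (without LMPP 1 or pro-B 1 or pro-B 2, -0.70 to -1.90) and Csrnp1 (without LMPP 1, -1.39). Apart from that of Sgk1 in GMP, each of these calls was lost without LMPP array 1. The large falls of Jun, Fosb, Dusp1, Rgs1, Zfp36 and Ier3 kept their calls under every alternative run in these 3 comparisons.

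**Figure D3:**
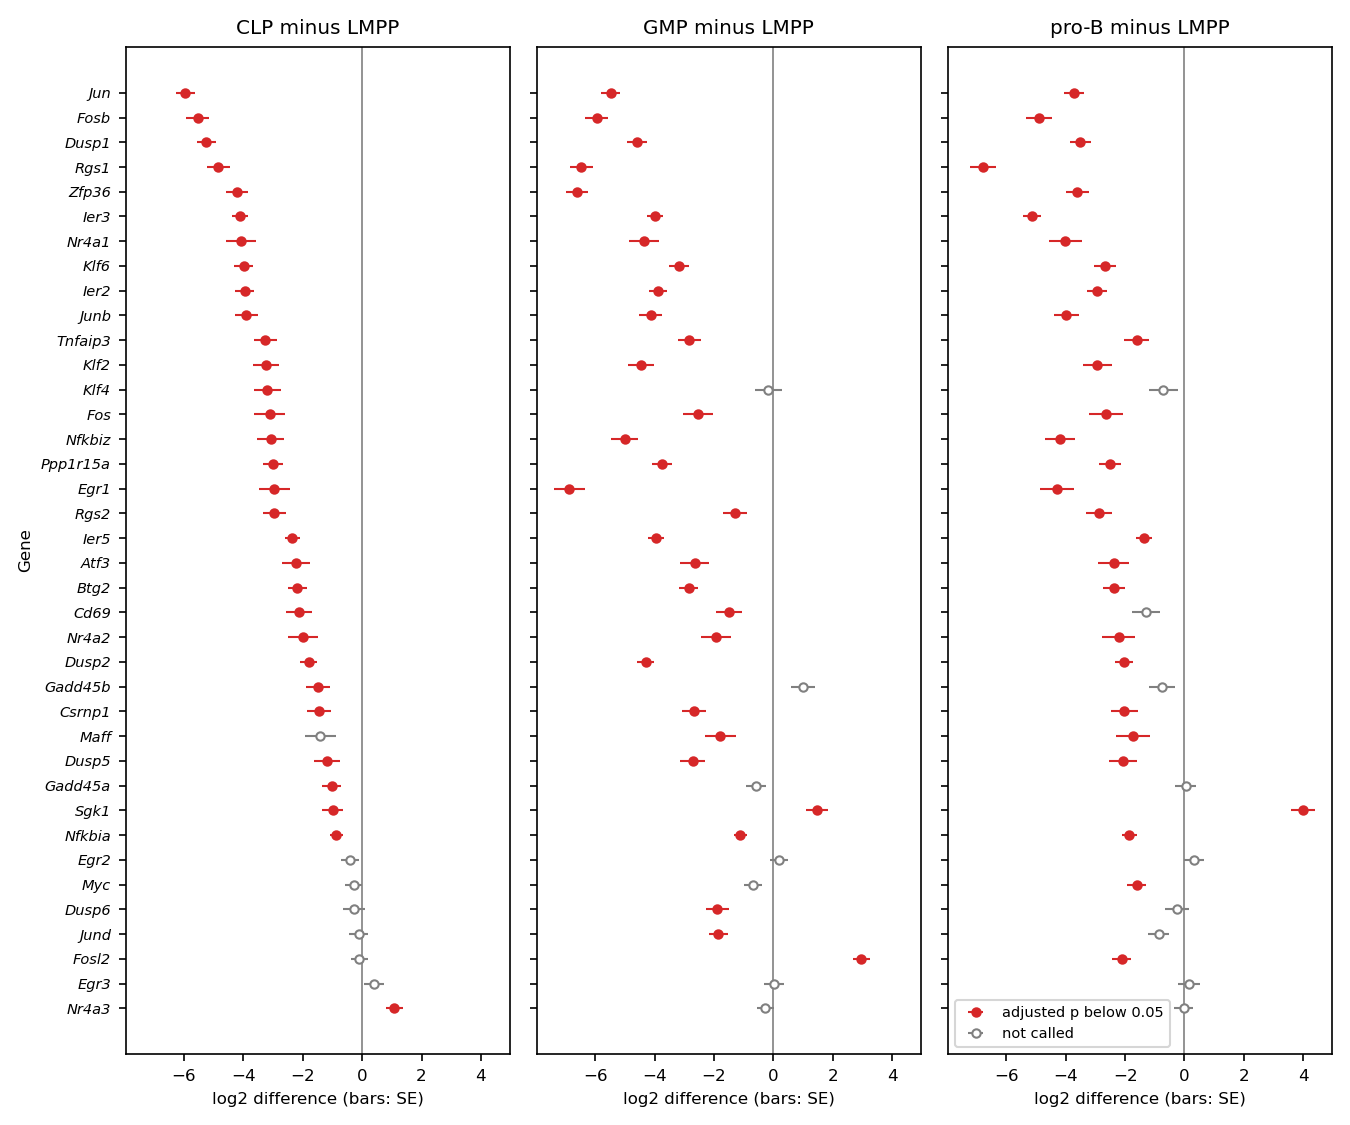
Log2 difference from LMPP (horizontal axis, bars are the SE of the model) of each of the 38 genes (rows, ordered by the CLP difference) in CLP, GMP and pro-B cells. Filled red points are called at an adjusted p below 0.05 and open grey points are not; 30, 29 and 28 genes were called below LMPP, and Sgk1 lies at 1.46 in GMP and 3.98 in pro-B cells.

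The AP-1 factors bind DNA as dimers of FOS and JUN family proteins, and 5 of the 8 members of this family fell from LMPP to CLP and 7 from LMPP to GMP. Jun encodes c-JUN, the founding partner of the dimer. It read 11.36 and 11.40 in HSC, 11.01 and 11.90 in MPP, and 11.30 and 11.37 in LMPP. Elsewhere it read 5.42, 5.42 and 5.29 in CLP, 5.79, 6.00 and 5.78 in GMP, 7.78 and 7.43 in pro-B cells, 7.61 and 6.40 in CD4 T cells, 2.99 and 3.10 in NK Ets1++ cells, and 4.18 and 3.75 in NK Ets1-- cells. The 6 high arrays were over 3 log2 units above the rest, and the NK arrays were the lowest, with all but 1 of them below the array median. On its other probe set the 6 high arrays read 9.02 to 10.19, the NK arrays 4.75 to 5.29 and the rest 5.70 to 7.51. There the NK arrays were also the lowest, but above the array median. On the probe set used, Jun fell by 5.96 ± 0.32 from LMPP to CLP (adjusted p = 7.59e-10), fell by 5.48 ± 0.32 to GMP and fell by 3.73 ± 0.35 to pro-B cells.

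Fos encodes c-FOS, which needs a JUN partner to bind DNA. Its level was 13.03 and 13.02 in HSC, 12.96 and 13.36 in MPP, and 13.11 and 13.27 in LMPP. It was 9.85, 9.04 and 11.33 in CLP, 10.54, 10.58 and 10.86 in GMP, 10.20 and 10.88 in pro-B cells, 10.01 and 8.02 in CD4 T cells, 6.13 and 5.75 in NK Ets1++ cells, and 6.50 and 6.67 in NK Ets1-- cells. The HSC, MPP and LMPP arrays spanned less than 1 log2 unit, whereas CLP arrays 2 and 3 differed by more than 2. Fos fell by 3.12 ± 0.51 from LMPP to CLP (adjusted p = 0.000335) and fell by 2.53 ± 0.51 to GMP. Fosb, an inducible FOS paralogue, read 10.07 and 8.31 in HSC, 9.39 and 10.29 in MPP, and 9.50 and 9.02 in LMPP. It read 3.81, 3.34 and 4.02 in CLP, 3.22, 3.20 and 3.53 in GMP, 4.15 and 4.58 in pro-B cells, 2.96 and 3.39 in CD4 T cells, 3.15 and 3.29 in NK Ets1++ cells, and 3.25 and 2.97 in NK Ets1-- cells. All CLP, GMP, CD4 T and NK arrays were below their array median for Fosb, so its fall of 5.54 ± 0.39 to CLP (adjusted p = 2.04e-08) ends at levels where the array measures little. Junb, a JUN protein often opposed to c-JUN in growth control, fell by 3.91 ± 0.39 to CLP and fell by 4.12 ± 0.39 to GMP. Atf3, a stress-induced repressor, fell by 2.23 ± 0.49 and fell by 2.65 ± 0.49, and outside HSC, MPP and LMPP none of its arrays exceeded the array median.

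The other 3 members of the family were not called in CLP. Jund, the JUN gene expressed constantly in most cells, read 10.09 and 9.70 in LMPP, 10.12, 9.30 and 9.93 in CLP and 7.85, 7.98 and 8.30 in GMP. Its CLP difference of -0.11 ± 0.32 was not called (adjusted p = 0.838), while in GMP it fell by 1.85 ± 0.32 (adjusted p = 0.000267). Maff, a small MAF protein without an activation domain, differed by -1.41 ± 0.52 in CLP, which was not called (adjusted p = 0.0551), and fell by 1.79 ± 0.52 in GMP. Its LMPP arrays read 6.87 and 4.83, a gap wider than the CLP difference. Fosl2, which encodes FRA2, differed by -0.09 ± 0.29 in CLP and rose by 2.97 ± 0.29 in GMP (adjusted p = 4.66e-07), from 5.20 and 4.72 to 8.06, 7.91 and 7.82. Its other probe set gave 0.31 for the same difference, and it gave 0.33 for pro-B cells minus LMPP, where the used one gave -2.12. In pro-B cells Fosl2 read 3.13 and 2.55, the lowest levels of all arrays and below the array median.

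**Figure D4:**
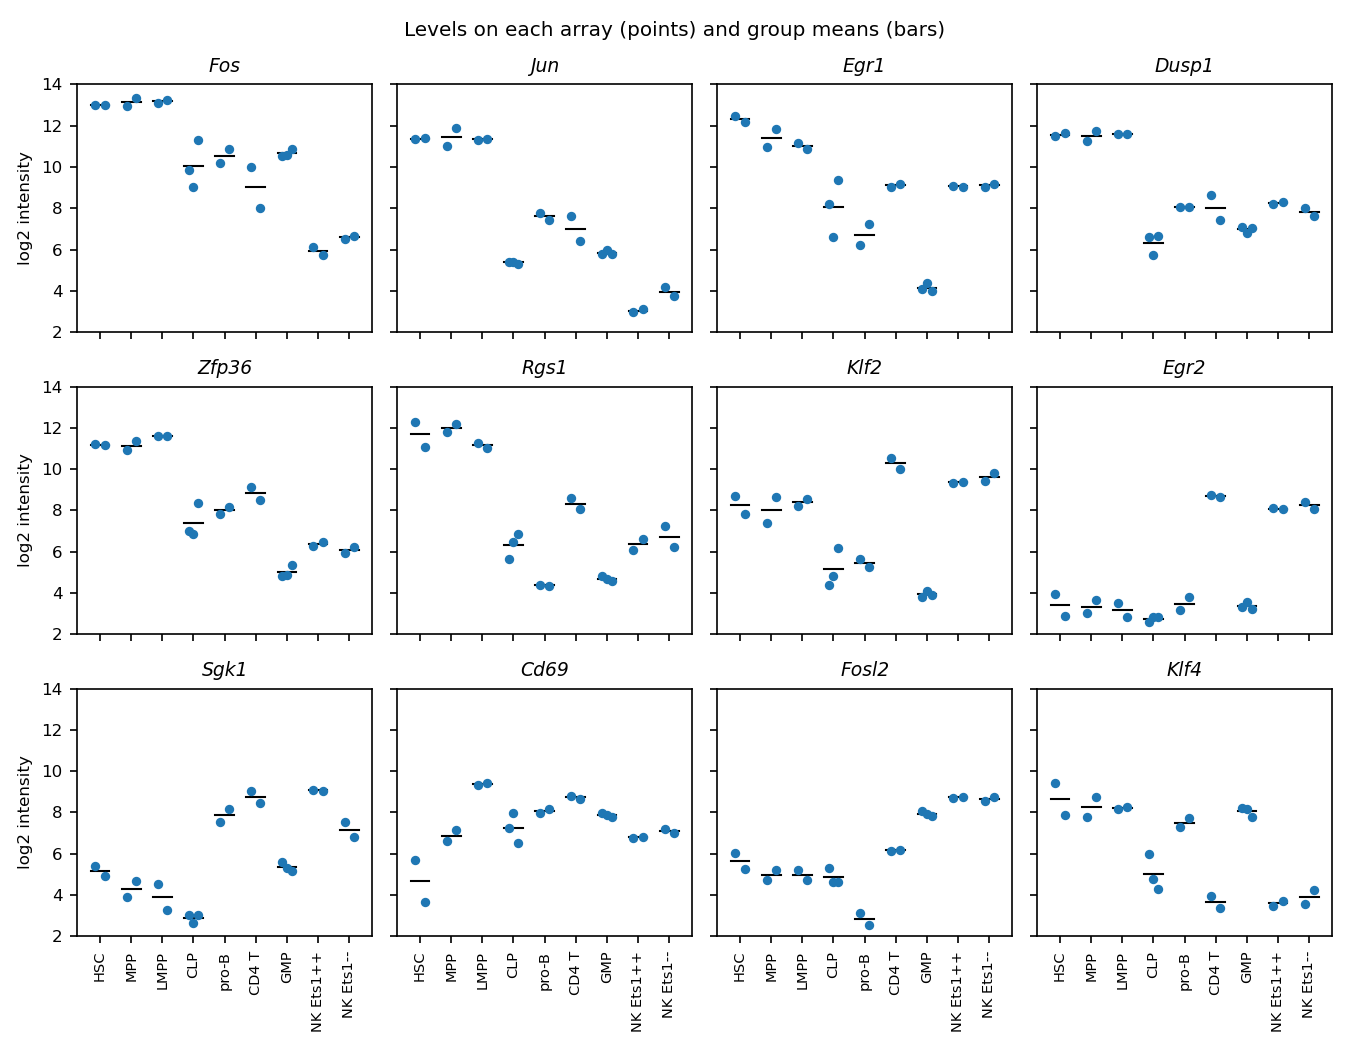
Log2 intensity (vertical axis) of 12 of the genes on each of the 20 arrays (points) with group means (bars), by group. Fos, Jun, Egr1, Dusp1, Zfp36 and Rgs1 are highest in HSC, MPP and LMPP; Egr2 lies above 8 in CD4 T and NK cells and below 4 elsewhere; Cd69 climbs from 5.68 and 3.67 in HSC to 9.31 and 9.44 in LMPP.

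The EGR zinc finger factors and the NR4A orphan receptors split by gene. From LMPP, 3 of the 6 fell both in CLP and in GMP, namely Egr1, Nr4a1 and Nr4a2, and 1 rose in CLP. Egr1, a direct target of MAP kinase signalling through serum response factor, read 12.45 and 12.18 in HSC, 10.99 and 11.84 in MPP, and 11.18 and 10.86 in LMPP. It read 8.22, 6.59 and 9.37 in CLP, 4.07, 4.38 and 4.01 in GMP, 6.22 and 7.23 in pro-B cells, 9.05 and 9.19 in CD4 T cells, 9.10 and 9.04 in NK Ets1++ cells, and 9.04 and 9.20 in NK Ets1-- cells. The GMP arrays lay below every other array, and CLP arrays 2 and 3 differed by 2.78. Egr1 fell by 6.87 ± 0.51 from LMPP to GMP (adjusted p = 1.26e-08) and fell by 2.96 ± 0.51 to CLP (adjusted p = 0.000514).

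Egr2, which with Egr3 limits T cell responses and is needed for NKT cell development, was high in CD4 T and NK cells. It read 3.95 and 2.86 in HSC, 3.01 and 3.64 in MPP, and 3.51 and 2.83 in LMPP, and in the other groups 2.57, 2.85 and 2.85 in CLP, 3.30, 3.58 and 3.20 in GMP, 3.18 and 3.79 in pro-B cells, 8.73 and 8.65 in CD4 T cells, 8.10 and 8.08 in NK Ets1++ cells, and 8.41 and 8.07 in NK Ets1-- cells. CD4 T and NK arrays did not overlap with any other array, and of the other 14 arrays only HSC array 1 exceeded its array median. Its differences from LMPP of -0.41 ± 0.31 in CLP and 0.19 ± 0.31 in GMP were not called. Egr3 differed by 0.40 ± 0.34 in CLP (adjusted p = 0.412). On this probe set it lay between 4.63 and 6.28 on all arrays and was called in none of the 12 comparisons. The other probe set of Egr3, dimmer on average and above the array median on 6 arrays, read 8.19 and 7.43 in CD4 T cells, 8.17 and 7.88 in NK Ets1++ cells and 5.98 and 6.09 in NK Ets1-- cells, and 2.11 to 2.87 on the other 14 arrays. The 2 probe sets therefore give different accounts of Egr3: flat on one, and high in the same 3 groups as Egr2 on the other. With their mean, Egr3 was called in CD4 T cells against CLP (2.46), pro-B cells (2.44) and HSC (2.56), in NK Ets1++ cells against CLP (2.52) and between the NK genotypes (-0.97).

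Nr4a1 encodes NUR77, which marks recent antigen receptor signalling in lymphocytes. It read 11.86 and 9.82 in HSC, 9.82 and 10.32 in MPP, and 10.91 and 9.06 in LMPP. It read 6.36, 5.76 and 5.59 in CLP, 5.53, 5.66 and 5.69 in GMP, 5.87 and 6.06 in pro-B cells, 8.07 and 7.16 in CD4 T cells, 7.62 and 7.31 in NK Ets1++ cells, and 6.78 and 7.27 in NK Ets1-- cells. All 6 progenitor arrays were above the rest, but replicates within HSC and within LMPP differed by close to 2 log2 units. Nr4a1 fell by 4.08 ± 0.51 from LMPP to CLP (adjusted p = 2.19e-05) and fell by 4.36 ± 0.51 to GMP. Nr4a2, its close paralogue, fell by 1.98 ± 0.51 to CLP, but 3 of its other 5 probe sets gave 0.40, -0.02 and 0.08, and the remaining ones -0.71 and -2.11. Its fall of 1.93 ± 0.51 to GMP was -0.11 to -0.45 on the other 5. With the mean of probe sets neither call was made (-0.54 in GMP). Nr4a3 has 3 probe sets. One read 4.04 and 3.51 in LMPP and 3.85, 3.58 and 3.79 in CLP, and was highest in CD4 T and NK cells, at 5.76 to 7.27. Another read 3.05 and 3.40 in LMPP and 4.85, 3.31 and 4.53 in CLP. On the brightest, which was the one used, Nr4a3 was the only gene of the 38 to rise in CLP, from 6.00 and 6.08 to 7.36, 6.75 and 7.24. The rise of 1.08 ± 0.29 (adjusted p = 0.0104) was not called with CLP array 2 alone or without either LMPP array.

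Klf2, Klf4, Klf6, Myc, Csrnp1, Ier2, Ier5 and Btg2 encode other nuclear factors, and 7 of these 8 fell in CLP and 6 in GMP. Klf2 read 8.71 and 7.81 in HSC, 7.38 and 8.65 in MPP, and 8.21 and 8.57 in LMPP. It read 4.39, 4.83 and 6.20 in CLP, 3.80, 4.08 and 3.91 in GMP, 5.66 and 5.26 in pro-B cells, 10.53 and 10.02 in CD4 T cells, 9.33 and 9.38 in NK Ets1++ cells, and 9.44 and 9.82 in NK Ets1-- cells. CD4 T arrays were highest, GMP arrays lowest, and the NK arrays were above the stem and progenitor arrays. Klf2 fell by 3.25 ± 0.44 from LMPP to CLP (adjusted p = 5.06e-05) and fell by 4.46 ± 0.44 to GMP (adjusted p = 4.34e-07).

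Klf4, a factor that restrains proliferation and favours monocyte fate, read 9.41 and 7.88 in HSC, 7.80 and 8.75 in MPP, and 8.19 and 8.24 in LMPP. It read 5.98, 4.77 and 4.31 in CLP, 8.22, 8.15 and 7.77 in GMP, 7.30 and 7.71 in pro-B cells, 3.96 and 3.37 in CD4 T cells, 3.47 and 3.71 in NK Ets1++ cells, and 3.54 and 4.23 in NK Ets1-- cells. GMP and pro-B arrays stood close to the progenitors, and CD4 T and NK arrays were near or below the array median. Klf4 fell by 3.19 ± 0.46 in CLP (adjusted p = 9.26e-05), while its difference of -0.17 ± 0.46 in GMP was not called on this probe set and was -2.21 on its other one. Ier5, a regulator of heat shock factor activity, read 8.21 and 7.71 in HSC, 7.22 and 7.38 in MPP, and 8.08 and 8.05 in LMPP. It read 5.52, 5.49 and 6.15 in CLP, 4.37, 4.13 and 3.82 in GMP, 6.75 and 6.65 in pro-B cells, 9.73 and 9.55 in CD4 T cells, 8.10 and 8.16 in NK Ets1++ cells, and 7.16 and 7.35 in NK Ets1-- cells. The CD4 T arrays were above all others and GMP below all others. Ier5 fell by 2.35 ± 0.26 to CLP (adjusted p = 5.56e-06) and fell by 3.96 ± 0.26 to GMP, whereas its other 2 probe sets moved by 0.16 and -0.11 in CLP.

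Klf6, a growth-restraining factor, fell by 3.99 ± 0.33 to CLP and fell by 3.18 ± 0.33 to GMP. Ier2 fell by 3.96 ± 0.31 and fell by 3.88 ± 0.31. Btg2, an antiproliferative partner of the deadenylase complex, fell by 2.19 ± 0.33 and fell by 2.86 ± 0.33. Its other probe set read 5.78 and 9.36 in LMPP, 6.35, 6.14 and 6.29 in CLP, and 4.42, 3.98 and 4.11 in GMP. There LMPP array 1 lay below every CLP array. Csrnp1, a nuclear protein induced by AXIN, fell by 1.45 ± 0.40 and fell by 2.68 ± 0.40. Myc, the growth factor response gene that drives ribosome synthesis, did not join them. Its LMPP arrays read 8.81 and 9.07, its CLP arrays 8.17, 8.87 and 8.93 and its GMP arrays 8.44, 8.32 and 7.99. Neither difference, -0.29 ± 0.29 (adjusted p = 0.502) nor -0.69 ± 0.29 (adjusted p = 0.0881), was called.

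The dual specificity phosphatases remove phosphate from MAP kinases and are induced by the kinases they switch off. Of the 4, Dusp1, Dusp2 and Dusp5 fell in CLP and all fell in GMP. Dusp1, which acts on p38, JNK and ERK in the nucleus, read 11.49 and 11.64 in HSC, 11.28 and 11.74 in MPP, and 11.58 and 11.58 in LMPP. It read 6.61, 5.72 and 6.65 in CLP, 7.07, 6.81 and 7.06 in GMP, 8.08 and 8.06 in pro-B cells, 8.64 and 7.41 in CD4 T cells, 8.21 and 8.29 in NK Ets1++ cells, and 7.99 and 7.65 in NK Ets1-- cells. The progenitor arrays spanned less than 0.5, and CLP had the lowest levels. Dusp1 fell by 5.25 ± 0.33 to CLP (adjusted p = 5.19e-09), fell by 4.60 ± 0.33 to GMP and fell by 3.51 ± 0.36 to pro-B cells.

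Dusp2, a phosphatase known as PAC1 from activated T cells, read 9.54 and 9.69 in HSC, 8.55 and 8.55 in MPP, and 10.12 and 9.68 in LMPP. It read 7.59, 8.33 and 8.37 in CLP, 5.67, 5.53 and 5.61 in GMP, 7.76 and 7.95 in pro-B cells, 9.45 and 8.67 in CD4 T cells, 8.86 and 8.94 in NK Ets1++ cells, and 7.79 and 8.13 in NK Ets1-- cells. GMP alone lay below 6, and Dusp2 fell by 4.30 ± 0.28 there (adjusted p = 2.1e-09) against 1.81 ± 0.28 in CLP. Dusp6, a cytoplasmic phosphatase specific for ERK, read 6.80 and 6.22 in HSC, 6.28 and 6.72 in MPP, and 7.91 and 7.14 in LMPP. It read 7.51, 7.71 and 6.55 in CLP, 5.93, 5.69 and 5.30 in GMP, 6.78 and 7.74 in pro-B cells, 5.57 and 4.89 in CD4 T cells, 5.32 and 5.43 in NK Ets1++ cells, and 4.36 and 4.50 in NK Ets1-- cells. CLP and pro-B arrays overlapped with LMPP, and the NK, CD4 T and GMP arrays were below all others. Its CLP difference of -0.27 ± 0.38 was not called (adjusted p = 0.635) and in GMP it fell by 1.89 ± 0.38. Dusp5, the nuclear ERK phosphatase, fell by 1.19 ± 0.43 in CLP at an adjusted p of 0.0494, a call lost with CLP array 2 alone and in 9 other alternatives, and fell by 2.72 ± 0.43 in GMP.

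The 4 genes of NF-kB feedback and messenger decay all fell in both populations. Zfp36 encodes tristetraprolin, which removes the messengers of TNF and of other immediate early genes. It read 11.22 and 11.15 in HSC, 10.91 and 11.37 in MPP, and 11.60 and 11.61 in LMPP. It read 6.99, 6.84 and 8.35 in CLP, 4.80, 4.86 and 5.33 in GMP, 7.82 and 8.18 in pro-B cells, 9.14 and 8.52 in CD4 T cells, 6.29 and 6.49 in NK Ets1++ cells, and 5.93 and 6.22 in NK Ets1-- cells. GMP lay lowest, and CLP array 3 stood more than 1 above the other CLP arrays. Zfp36 fell by 6.61 ± 0.36 from LMPP to GMP (adjusted p = 1.25e-10) and fell by 4.21 ± 0.36 to CLP.

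Nfkbiz, a nuclear IkB protein that switches on secondary response genes, read 9.63 and 7.92 in HSC, 7.78 and 7.97 in MPP, and 9.92 and 8.81 in LMPP. It read 5.38, 7.02 and 6.44 in CLP, 4.40, 4.44 and 4.24 in GMP, 5.13 and 5.19 in pro-B cells, 8.48 and 7.83 in CD4 T cells, 7.93 and 7.76 in NK Ets1++ cells, and 7.49 and 7.29 in NK Ets1-- cells. GMP and pro-B arrays were below all others, and CD4 T and NK Ets1++ arrays overlapped with HSC and MPP. Nfkbiz fell by 5.0 ± 0.46 to GMP (adjusted p = 1.68e-07) and fell by 3.08 ± 0.46 to CLP. Tnfaip3, which encodes the ubiquitin-editing enzyme A20, read 9.85 and 8.19 in HSC, 8.90 and 9.77 in MPP, and 9.88 and 9.09 in LMPP. It read 6.12, 6.39 and 6.15 in CLP, 6.60, 6.84 and 6.51 in GMP, 7.73 and 8.02 in pro-B cells, 8.93 and 8.23 in CD4 T cells, 8.36 and 8.37 in NK Ets1++ cells, and 7.70 and 7.73 in NK Ets1-- cells. The CLP and GMP arrays were below every other array for Tnfaip3, which fell by 3.26 ± 0.39 in CLP and fell by 2.84 ± 0.39 in GMP. Nfkbia, which encodes IkBa, the inhibitor that holds NF-kB in the cytoplasm, fell by 0.87 ± 0.23 in CLP and fell by 1.11 ± 0.23 in GMP. Its other 4 probe sets gave larger CLP differences, from -1.70 to -2.87.

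All 5 stress and survival genes fell in CLP, 3 of them (Gadd45a, Gadd45b and Sgk1) with calls lost in 5 or more alternatives, while in GMP 2 fell and 1 rose. Ier3, a short-lived regulator of apoptosis, read 10.32 and 10.14 in HSC, 10.33 and 10.45 in MPP, and 10.58 and 10.52 in LMPP. It read 6.48, 5.93 and 6.85 in CLP, 6.55, 6.65 and 6.54 in GMP, 5.64 and 5.17 in pro-B cells, 4.79 and 5.14 in CD4 T cells, 4.41 and 4.82 in NK Ets1++ cells, and 4.45 and 4.67 in NK Ets1-- cells. The progenitor arrays were at least 3 log2 units above the rest, a gap shared with Fosb and, on the probe set used, with Jun. Ier3 fell by 4.13 ± 0.27 to CLP (adjusted p = 8.55e-09) and fell by 3.97 ± 0.27 to GMP. Ppp1r15a encodes GADD34, which directs dephosphorylation of the translation factor eIF2a after stress. It read 9.32 and 9.89 in HSC, 8.57 and 9.63 in MPP, and 8.93 and 8.86 in LMPP. It read 5.71, 6.11 and 5.88 in CLP, 5.35, 5.20 and 4.87 in GMP, 6.88 and 5.90 in pro-B cells, 7.76 and 7.57 in CD4 T cells, 5.11 and 5.42 in NK Ets1++ cells, and 5.39 and 5.11 in NK Ets1-- cells. GMP and NK arrays were lowest. Ppp1r15a fell by 2.99 ± 0.33 and fell by 3.75 ± 0.33.

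Sgk1, a kinase induced by glucocorticoids and growth factors, was high in pro-B, CD4 T and NK cells. It read 5.41 and 4.90 in HSC, 3.92 and 4.66 in MPP, and 4.54 and 3.25 in LMPP, and in the other groups 3.02, 2.65 and 3.04 in CLP, 5.58, 5.33 and 5.17 in GMP, 7.56 and 8.19 in pro-B cells, 9.03 and 8.46 in CD4 T cells, 9.10 and 9.05 in NK Ets1++ cells, and 7.52 and 6.79 in NK Ets1-- cells. The pro-B, CD4 T and NK arrays were above all others and the CLP arrays below all others, under the array median. From LMPP Sgk1 rose by 1.46 ± 0.36 in GMP (adjusted p = 0.00477) and by 3.98 ± 0.40 in pro-B cells (adjusted p = 6.66e-07). Its fall of 0.99 ± 0.36 in CLP was close to the threshold (adjusted p = 0.0499) and was lost in 10 of 15 alternatives. Gadd45a, a growth arrest gene induced by p53, fell by 1.03 ± 0.33 in CLP (a call lost in 7 of 15 alternatives) and differed by -0.58 ± 0.33 in GMP, which was not called. Gadd45b, its relative induced by NF-kB, fell by 1.48 ± 0.40 in CLP (lost in 5 of 15, with 0.61 on a probe set mostly below the array median and -1.33 on another), and its difference of 1.00 ± 0.40 in GMP was not called (adjusted p = 0.0658).

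The surface and G protein genes fell in both populations, 3 of 3. Rgs1, a brake on chemokine receptor signalling in lymphocytes, read 12.30 and 11.09 in HSC, 11.82 and 12.17 in MPP, and 11.26 and 11.04 in LMPP. It read 5.62, 6.45 and 6.86 in CLP, 4.80, 4.65 and 4.59 in GMP, 4.39 and 4.34 in pro-B cells, 8.61 and 8.05 in CD4 T cells, 6.09 and 6.61 in NK Ets1++ cells, and 7.25 and 6.21 in NK Ets1-- cells. The progenitor arrays were all above 11, and pro-B and GMP arrays were lowest. Rgs1 fell by 6.79 ± 0.43 from LMPP to pro-B cells (adjusted p = 1.59e-09), fell by 6.48 ± 0.39 to GMP and fell by 4.85 ± 0.39 to CLP.

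Rgs2, which acts on Gq-coupled receptors, read 10.52 and 9.59 in HSC, 10.18 and 10.79 in MPP, and 10.91 and 11.23 in LMPP. It read 7.45, 9.09 and 7.82 in CLP, 9.81, 9.85 and 9.69 in GMP, 8.39 and 7.99 in pro-B cells, 8.68 and 7.82 in CD4 T cells, 7.17 and 7.68 in NK Ets1++ cells, and 6.65 and 6.71 in NK Ets1-- cells. On the probe set used GMP overlapped with HSC, and the NK Ets1-- arrays were lowest. Rgs2 fell by 2.95 ± 0.40 in CLP and fell by 1.29 ± 0.40 in GMP (adjusted p = 0.0205). Another probe set read 10.87 and 9.28 in HSC, 10.96 and 11.38 in LMPP, and 8.97, 8.91 and 8.72 in GMP. A further one read 10.33 and 8.47 in HSC, 10.58 and 10.70 in LMPP, and 7.71, 7.48 and 7.19 in GMP. GMP lay below HSC on both. The remaining, dim probe set read 3.23 and 4.21 in LMPP and 2.94, 3.07 and 3.01 in GMP. Cd69, the C-type lectin that appears first on activated lymphocytes and retains them in tissue, read 5.68 and 3.67 in HSC, 6.60 and 7.14 in MPP, and 9.31 and 9.44 in LMPP. It read 7.26, 7.95 and 6.54 in CLP, 7.98, 7.88 and 7.76 in GMP, 7.96 and 8.18 in pro-B cells, 8.79 and 8.66 in CD4 T cells, 6.78 and 6.82 in NK Ets1++ cells, and 7.22 and 6.99 in NK Ets1-- cells. LMPP arrays were the highest and HSC arrays the lowest of all. Cd69 fell by 2.13 ± 0.43 from LMPP to CLP (adjusted p = 0.00175), a call lost with CLP array 2 alone, and fell by 1.50 ± 0.43 to GMP.

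Along the first steps from HSC to MPP and LMPP, with 2 arrays in each group, few genes of the set were called. From HSC to MPP Cd69 rose by 2.19 ± 0.47 (adjusted p = 0.00846) and Dusp2 fell by 1.07 ± 0.31 (adjusted p = 0.0464), where 1.94% of all genes were called up and 3.99% down. From MPP to LMPP Cd69 rose again, by 2.51 ± 0.47 (adjusted p = 0.00565), and Dusp2 rose by 1.36 ± 0.31 (adjusted p = 0.0249), where 0.942% were called up and 0.772% down. Of the genes not called, Maff differed most from HSC to MPP (-1.77 ± 0.57, adjusted p = 0.0803), followed by Gadd45b at -1.08 ± 0.43 and Csrnp1 at -1.04 ± 0.44. From MPP to LMPP the largest uncalled differences were those of Dusp5 (1.56 ± 0.47), Nfkbiz (1.48 ± 0.50) and Nr4a2 (-1.09 ± 0.56). Each of these calls was lost when certain single arrays were left out. The Cd69 rise to MPP was lost without HSC array 2 or MPP array 2, and 5 genes were called without HSC array 1. The Cd69 rise to LMPP was lost without MPP array 1 or either LMPP array, and the Dusp2 calls without any one of the arrays compared.

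The HSC arrays differed from each other within this set of genes. HSC array 1 was higher for 32 of the 38, with a median difference of 0.83 against -0.08 over all genes. It was higher by more than 1 log2 unit for 16 of the 38, against 2.80% of all genes. Nr4a2 read 8.82 and 6.04 on arrays 1 and 2, Atf3 6.14 and 3.42, Maff 9.13 and 6.81, Dusp5 7.33 and 5.12, Nr4a1 11.86 and 9.82 and Cd69 5.68 and 3.67. These are differences of 2.01 to 2.78. Fos, Jun and Dusp1 differed by 0.02, -0.04 and -0.15, and Gadd45a was lower on array 1 by 1.42. The actin difference was 2.66 on array 1 and 2.16 on array 2, whose part in the result was not tested. Between the LMPP arrays 6 of the 38 differed by more than 1 log2 unit, all higher on array 1, with Maff at 2.04. Of all genes, 0.72% were higher by that much on LMPP array 1 and 0.304% on LMPP array 2.

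**Figure D5:**
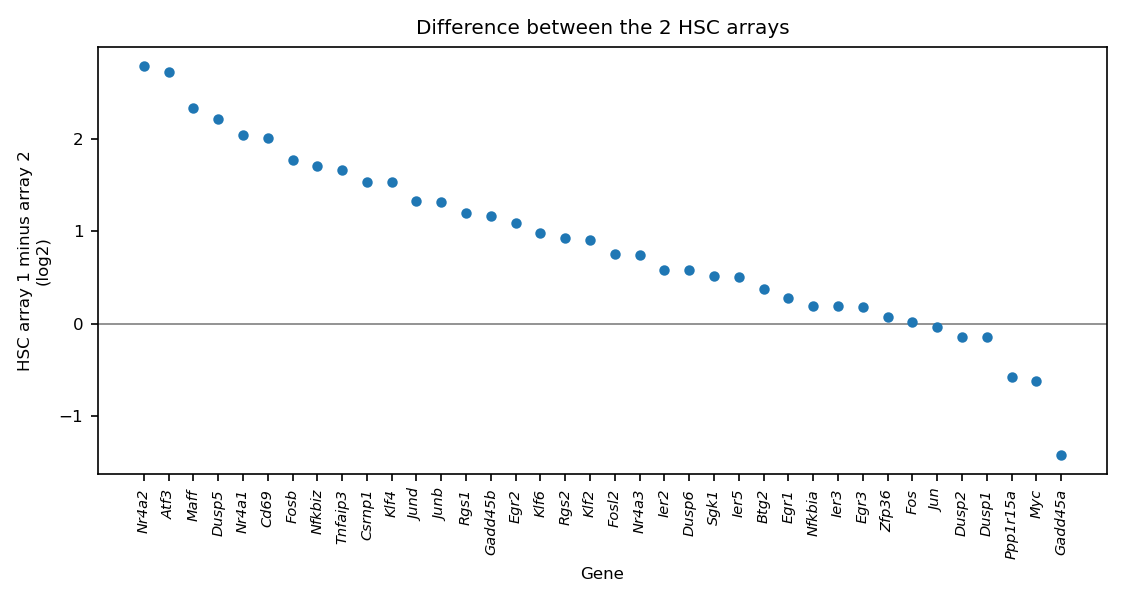
Log2 level on HSC array 1 minus array 2 (vertical axis) for each of the 38 genes (horizontal axis), in order of the difference. The points run from 2.78 for Nr4a2 to -1.42 for Gadd45a, and 32 of 38 lie above 0.

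On the B lineage path, from CLP to pro-B cells, 9 of the 38 genes rose and 7 fell. These shares were near those of all genes, of which 21.1% were called up and 14.0% down. The median difference of the 38 was 0.03, against -0.02 over all genes. Centred on housekeeping genes, which moved the median of all genes to -0.59, 5 rose and 12 fell. Sgk1 rose by 4.98 ± 0.36 (adjusted p = 1.79e-08), Klf4 by 2.48 ± 0.46, Jun by 2.23 ± 0.32 (adjusted p = 3.9e-05), Dusp1 by 1.74 ± 0.33 and Tnfaip3 by 1.65 ± 0.39. The smaller rises were those of Klf6 (1.32 ± 0.33), Gadd45a (1.07 ± 0.33), Ier2 (1.02 ± 0.31) and Ier5 (0.98 ± 0.26). Fosl2 fell by 2.03 ± 0.29 (adjusted p = 4.84e-05), Rgs1 fell by 1.94 ± 0.39 and Myc fell by 1.32 ± 0.29. Egr1, Nr4a3, Ier3 and Nfkbia fell by between 0.99 and 1.34, the Egr1 arrays of the groups overlapping (adjusted p = 0.0499). Calls lost without 1 array were those of Egr1 (without CLP 1 or CLP 3 or pro-B 1, -0.68 to -1.26), Ier2 (without CLP 1 or CLP 3 or pro-B 1 or pro-B 2, 0.80 to 1.06), Ier3 (without pro-B 2, -0.78), Nr4a3 (without pro-B 2, -0.91) and Gadd45a (without pro-B 2, 0.91). The other probe sets of Fosl2 and Klf4 gave 0.08 and 0.57. Among the 22 genes not called, Nfkbiz (-1.12 ± 0.46), Dusp5 (-0.87 ± 0.43) and Cd69 (0.82 ± 0.43) differed most. With CLP array 2 alone 13 genes were called, and the sign of Egr1 turned to 0.13.

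On the probe sets used, Egr2, Sgk1 and Klf2 had the largest rises from CLP to CD4 T cells, while Fos was not called. From CLP to CD4 T cells 21 genes rose and 5 fell, where 29.0% of all genes were called up and 19.7% down. Centred on housekeeping genes the split was 15 and 8. Egr2 rose by 5.94 ± 0.31 (adjusted p = 2.83e-11), Sgk1 by 5.85 ± 0.36 (adjusted p = 3.34e-10) and Klf2 by 5.13 ± 0.44 (adjusted p = 2.86e-08). Ier5 rose by 3.92 ± 0.26, Klf6 by 3.01 ± 0.33, Btg2 by 2.83 ± 0.33 and Ier2 by 2.74 ± 0.31. Junb (2.44 ± 0.39), Tnfaip3 (2.36 ± 0.39) and Rgs1 (2.02 ± 0.39) completed the 10 largest, and the other 11 rose by 0.86 to 1.90. Dusp6, Nr4a3, Ier3, Myc and Klf4 fell by 1.36 to 2.03. Of the other 2 probe sets of Nr4a3, one gave -1.43 and one 3.10, and the mean of the 3 moved by 0.02. The other probe set of Egr3 differed by 5.28, that of Fosl2 gave -0.65 against 1.30 on the used one, and those of Ier5 gave 0.82 and 1.90. Calls lost without 1 array were those of Dusp2 (without CD4 T 1, 0.57), Zfp36 (without CD4 T 1, 1.12), Nr4a1 (without CD4 T 1, 1.26), Klf4 (without CLP 1 or CD4 T 2, -0.88 to -1.07), Nfkbia (without CD4 T 1, 0.75) and Cd69 (without CD4 T 1, 1.41). Fos, at -1.06 ± 0.51 (adjusted p = 0.0953), and Egr1, at 1.06 ± 0.51 (adjusted p = 0.0945), were not called, nor was Dusp5 at 0.63 ± 0.43. CD4 T array 1 was higher than array 2 for 29 of the 38 genes, with Fos at 10.01 and 8.02 on arrays 1 and 2. The median difference between these arrays was 0.39 over the 38, against 0.03 over all genes.

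Against pro-B cells, CD4 T cells had 18 genes higher and 4 lower, where 17.0% of all genes were called up and 11.8% down. Egr2 was higher by 5.21 ± 0.34, Klf2 by 4.81 ± 0.48, Rgs1 by 3.97 ± 0.43, Fosl2 by 3.32 ± 0.32 and Btg2 by 3.02 ± 0.36. Nfkbiz (2.99 ± 0.50), Ier5 (2.94 ± 0.28), Junb (2.51 ± 0.42), Egr1 (2.40 ± 0.56) and Nfkbia (1.85 ± 0.25) followed, and the other 8 were higher by 1.10 to 1.72. Klf4 was lower by 3.85 ± 0.50 (adjusted p = 6.56e-06), Dusp6 by 2.03 ± 0.41, Fos by 1.53 ± 0.56 (adjusted p = 0.0486) and Fosb by 1.19 ± 0.43. Of the 16 not called, Gadd45a (-0.90 ± 0.36), Sgk1 (0.87 ± 0.40) and Zfp36 (0.83 ± 0.39) differed most. On their other probe sets Fosl2 gave -0.73, Egr3 4.99 and Klf4 -1.15. Calls lost without 1 array were those of Egr1 (without pro-B 1, 1.89), Fos (without pro-B 1 or pro-B 2 or CD4 T 2, -0.53 to -1.87), Fosb (without pro-B 1 or pro-B 2 or CD4 T 1 or CD4 T 2, -0.97 to -1.41), Jund (without pro-B 1 or CD4 T 1 or CD4 T 2, 0.90 to 1.21), Dusp2 (without CD4 T 1, 0.81), Dusp5 (without pro-B 1 or CD4 T 1 or CD4 T 2, 1.28 to 1.58), Nr4a1 (without pro-B 1 or pro-B 2 or CD4 T 1, 1.20 to 1.75), Gadd45b (without pro-B 1 or pro-B 2 or CD4 T 1 or CD4 T 2, 0.97 to 1.39) and Ppp1r15a (without pro-B 2 or CD4 T 1, 0.78 to 1.18).

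Set against HSC, CD4 T cells had 7 of the genes higher and 22 lower, where 14.0% of all genes were called up and 16.7% down. The median difference of the 38 was -1.38, against -0.09 over all genes. Egr2 (5.29 ± 0.34), Cd69 (4.05 ± 0.47), Sgk1 (3.60 ± 0.40), Klf2 (2.01 ± 0.48), Btg2 (1.72 ± 0.36), Ier5 (1.68 ± 0.28) and Dusp5 (1.40 ± 0.47) were higher. Fosb fell by 6.02 ± 0.43 from HSC to CD4 T cells (adjusted p = 2.34e-09), Ier3 fell by 5.27 ± 0.30, Klf4 fell by 4.98 ± 0.50, Jun fell by 4.37 ± 0.35 and Fos fell by 4.01 ± 0.56. Maff (-3.85 ± 0.57), Dusp1 (-3.54 ± 0.36), Rgs1 (-3.36 ± 0.43), Nr4a1 (-3.23 ± 0.56) and Egr1 (-3.19 ± 0.56) were the next largest, and the other 12 fell by 1.14 to 2.75. The count of calls ran from 22 without CD4 T array 2 to 31 without HSC array 2. Nr4a3 (-0.63 ± 0.32), Nfkbiz (-0.62 ± 0.50) and Dusp2 (-0.56 ± 0.31) were the largest of the 9 not called. On their other probe sets Egr3 gave 5.22, Btg2 3.61 and Klf4 -2.75. Calls lost without 1 array were those of Junb (without HSC 1 or CD4 T 2, -0.49 to -0.74), Dusp5 (without HSC 2 or CD4 T 1 or CD4 T 2, 0.29 to 1.48), Dusp6 (without HSC 1 or CD4 T 2, -0.94 to -0.99), Atf3 (without HSC 1 or CD4 T 1 or CD4 T 2, -0.40 to -1.90), Klf6 (without HSC 1 or CD4 T 2, -0.89 to -1.20), Rgs2 (without HSC 1 or CD4 T 2, -1.34 to -1.37) and Csrnp1 (without HSC 1 or CD4 T 2, -0.88 to -1.38).

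NK Ets1++ cells, like CD4 T cells, had Egr2, Klf2 and Sgk1 above CLP, and on the probe sets used their Fos and Jun arrays were the lowest of all. From CLP to NK Ets1++ cells 16 genes rose and 10 fell, where 32.4% of all genes were called up and 19.2% down. Centred on housekeeping genes the split was 11 and 15, and after repeated quantile normalization 12 and 13. Sgk1 rose by 6.17 ± 0.36 (adjusted p = 1.67e-10), Egr2 by 5.33 ± 0.31, Klf2 by 4.21 ± 0.44, Fosl2 by 3.86 ± 0.29 (adjusted p = 5.99e-09) and Klf6 by 3.22 ± 0.33. Nr4a2 (2.76 ± 0.51), Ier5 (2.41 ± 0.26), Tnfaip3 (2.14 ± 0.39), Dusp1 (1.92 ± 0.33) and Junb (1.87 ± 0.39) followed, and the other 6 rose by 0.62 to 1.85. Fos fell by 4.13 ± 0.51 (adjusted p = 3.35e-06) and Jun fell by 2.33 ± 0.32 (adjusted p = 9.43e-06). Nr4a3, Dusp6, Ier3, Klf4, Gadd45a, Csrnp1, Myc and Zfp36 fell by 1.01 to 1.89. The other probe sets of Nr4a3 gave -1.48 and 3.46, and the mean of the 3 moved by 0.03. The other probe set of Fosl2 gave 0.04 and that of Egr3 5.50, while the other 5 of Nr4a2 gave -1.52 to 3.81. Calls lost without 1 array were those of Dusp2 (without CLP 1 or NK Ets1++ 1 or NK Ets1++ 2, 0.55 to 0.85), Zfp36 (without CLP 3 or NK Ets1++ 1 or NK Ets1++ 2, -0.53 to -1.11), Nr4a1 (without NK Ets1++ 1 or NK Ets1++ 2, 1.41 to 1.72), Klf4 (without CLP 1 or NK Ets1++ 1 or NK Ets1++ 2, -0.95 to -1.55), Myc (without NK Ets1++ 1, -0.90), Nfkbia (without CLP 1 or CLP 3 or NK Ets1++ 1 or NK Ets1++ 2, 0.49 to 0.65), Nfkbiz (without NK Ets1++ 1, 1.48) and Csrnp1 (without CLP 3 or NK Ets1++ 1 or NK Ets1++ 2, -0.95 to -1.26). Egr1 (1.01 ± 0.51), Dusp5 (0.72 ± 0.43) and Rgs2 (-0.69 ± 0.40) were the largest of the 12 not called on the probe sets used. Another probe set of Rgs2 read 6.37 and 6.47 in NK Ets1++ cells against 9.34, 9.16 and 9.78 in CLP. A further one read 6.12 and 6.18 against 7.25, 7.70 and 6.62, and on the dim remaining one the groups overlapped. With CLP array 2 alone 19 genes were called in this comparison and 22 in that of CD4 T cells with CLP. Of 11 myeloid markers 7 were called up in NK Ets1++ cells against CLP, and their mean level was 7.49 and 7.51 against 5.25 to 5.64, whose part in the result was not tested.

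Compared with CD4 T cells directly, NK Ets1++ cells had 2 genes higher and 10 lower, where 14.3% of all genes were called up and 10.2% down. Fosl2 was higher by 2.57 ± 0.32 (adjusted p = 5.96e-06) and Nr4a2 by 2.53 ± 0.56 (adjusted p = 0.00231). Jun was lower by 3.96 ± 0.35 (adjusted p = 5.34e-08), Fos by 3.07 ± 0.56 (adjusted p = 0.000409), Zfp36 by 2.44 ± 0.39 and Ppp1r15a by 2.40 ± 0.36. Rgs1 (-1.98 ± 0.43), Cd69 (-1.93 ± 0.47), Ier5 (-1.51 ± 0.28), Btg2 (-1.47 ± 0.36), Gadd45a (-1.39 ± 0.36) and Gadd45b (-1.23 ± 0.43) were also lower. Among the AP-1 genes, Jun read 2.99 and 3.10 in NK Ets1++ cells against 7.61 and 6.40 in CD4 T cells, and Fosl2 8.72 and 8.73 against 6.14 and 6.18. Csrnp1 (-1.12 ± 0.44), Klf2 (-0.92 ± 0.48) and Ier2 (-0.89 ± 0.34) differed most among the 26 not called. The other probe sets of Fosl2 and Jun gave 0.69 and -1.01, and those of Nr4a2 -1.05 to 3.42. Calls lost without 1 array were those of Btg2 (without NK Ets1++ 2, -1.32), Gadd45a (without CD4 T 1 or NK Ets1++ 2, -1.26 to -1.32) and Gadd45b (without CD4 T 1 or CD4 T 2 or NK Ets1++ 1 or NK Ets1++ 2, -1.02 to -1.44). Of the 11 myeloid markers 8 were called up here, with a mean level of 4.47 to 4.70 in CD4 T cells, whose part in the result was not tested.

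The comparison the study was made for, NK cells with and without Ets1, moved 1 of the 38 genes on the probe sets used. Sgk1 read 9.10 and 9.05 on the Ets1++ arrays and 7.52 and 6.79 on those labelled Ets1--. It fell by 1.92 ± 0.40 (adjusted p = 0.00729), where 1.59% of all genes were called up and 2.23% down. The call was lost without either Ets1++ array or without Ets1-- array 2, with differences of -1.56 to -2.28 over the alternatives. The other 37 differed by -0.94 ± 0.31 (Dusp2, adjusted p = 0.114) to 0.92 ± 0.35 (Jun, adjusted p = 0.198), with Dusp6 at -0.94 ± 0.41. The other probe set of Egr3, however, differed by -1.99, with 5.98 and 6.09 in Ets1-- against 8.17 and 7.88 in Ets1++ cells. With the mean of probe sets Egr3 was the second gene called. Rgs2, Nr4a3 and Nr4a2 were not called with that mean, but other probe sets of theirs also set the genotypes apart. For Rgs2 such a probe set read 4.03 and 5.33 in Ets1-- against 6.37 and 6.47 in Ets1++ cells. For Nr4a3 the values were 6.17 and 5.76 against 7.13 and 7.27. For Nr4a2 they went up, with 6.29 and 5.28 against 4.29 and 3.86. For Jun the arrays read 2.99 and 3.10 with Ets1 and 4.18 and 3.75 without, all near or below the array median. The other probe set of Jun read 5.29 and 4.97 with Ets1 and 4.86 and 4.75 without, above the array median and in the other direction. For Dusp2 the arrays read 8.86 and 8.94 with Ets1 and 7.79 and 8.13 without, and for Dusp6 5.32 and 5.43 and 4.36 and 4.50. For 24 of the 38 genes both arrays of one genotype lay above both of the other, which held for 55.4% of all genes tested.

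Ets1 itself read 11.34 and 11.45 with Ets1 and 11.28 and 10.85 without on its probe set of highest mean, and 8.34 and 8.51 against 6.53 and 7.22 on the probe set with the largest fall. The sources used here do not place these probe sets relative to the deleted part, so they check no label. Myeloid markers differed between the genotypes too, with a mean level of 7.49 and 7.51 with Ets1 and 5.76 to 6.42 without over 11 genes, 6 of them called down, and T lineage markers lay at 4.50 to 4.52 and 5.44 to 5.47. The part of either in the Sgk1 result was not tested. The actin difference was 4.07 on Ets1-- array 2 and 2.76 to 2.90 on the other 3 NK arrays.

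Other genes of the same pathways were read from lists of their own. The counts of this and the following lists stand beside these shares of all genes tested. From LMPP, 19.2% were called down and 6.96% up in CLP, and 13.0% and 16.0% in GMP. From CLP, 29.0% were called up and 19.7% down in CD4 T cells, and 32.4% and 19.2% in NK Ets1++ cells. Between the NK genotypes 1.59% were called up and 2.23% down. Of 37 further activity-induced genes tested, 10 fell and 3 rose from LMPP to CLP, with a median of -0.27, and 17 fell and 1 rose to GMP, with a median of -0.92. Ptgs2, the inducible cyclooxygenase, fell by 3.40 ± 0.31 in CLP and 3.48 ± 0.31 in GMP. Socs3, the feedback inhibitor of cytokine receptors, fell by 2.98 ± 0.50 and 6.18 ± 0.50. Icos, a T cell costimulatory receptor, rose by 2.71 ± 0.28 in CLP, and Zfp36l1, a relative of Zfp36, fell by 2.66 ± 0.33 in GMP. From CLP to CD4 T cells 17 of the 37 rose and 6 fell, with Cd83 up by 5.32 ± 0.25, Id3 up by 4.85 ± 0.32 and Cdkn1a lower by 3.88 ± 0.55. From CLP to NK Ets1++ cells 11 rose and 8 fell, led by Bhlhe40 at 5.24 ± 0.45, Tob1 at 4.35 ± 0.34 and Gadd45g at 3.80 ± 0.29. Between the NK genotypes 1 rose and 2 fell: Nfil3, a factor needed for NK development, rose by 1.47 ± 0.30, Gadd45g fell by 1.93 ± 0.32 and Icos by 1.52 ± 0.30.

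In the NF-kB pathway itself, 15 genes were tested, and the shares of all genes called are those given above. None rose and 5 fell from LMPP to CLP, by a median of -0.38 over the 15, with Tnip2 at -0.91 ± 0.30, Traf2 at -0.89 ± 0.24 and Ikbkb at -0.85 ± 0.30 as the largest called. From LMPP to GMP 6 fell and 1 rose, with Nfkbie, Rela and Ikbkb lower by 1.21, 1.19 and 1.18. From CLP to CD4 T cells 12 of the 15 rose and none fell, and to NK Ets1++ cells 9 rose and none fell. Traf1, an adaptor of TNF receptors, rose by 4.59 ± 0.32 and 5.24 ± 0.32, and Traf2 by 2.65 ± 0.24 and 2.37 ± 0.24. Relb, of the alternative pathway, rose by 3.48 ± 0.28 in CD4 T cells, and Tnip1, a partner of A20, by 2.03 ± 0.24 in NK Ets1++ cells. Without Ets1, Traf1 was lower by 2.55 ± 0.35 in NK cells, the one call of 15.

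The upstream kinases and factors of the serum response and CREB pathways, 14 genes tested, had a median difference from LMPP of -0.32 in CLP, where 3 fell and 1 rose, and of 0.25 in GMP, where 1 fell and 4 rose. The CLP counts were near the shares of all genes, 19.2% called down and 6.96% up. Elk4, a partner of serum response factor, rose by 1.39 ± 0.29 in CLP, while the kinases Rps6ka3 and Mapkapk2 fell by 1.33 ± 0.30 and 1.32 ± 0.29. In GMP Map2k1, Srf and Creb1 rose by 1.51 ± 0.45, 1.23 ± 0.27 and 1.16 ± 0.35. Of 10 heat shock genes 3 fell from LMPP to CLP: Hspa1b by 3.56 ± 0.83, Hspa1a by 2.01 ± 0.69 and Hspe1 by 0.81 ± 0.27. Hspa1a and Hspa1b are near-identical copies, so their probe sets may not tell them apart. From LMPP to GMP Hspa1b fell by 2.43 ± 0.83 while Hspe1 and Hsph1 rose by 0.89 ± 0.27 and 0.76 ± 0.27. From LMPP to pro-B cells 2 of the 10 rose and none fell, where 6.91% of all genes were called up and 10.3% down.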

How the data were processed

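Sorted mouse cells were profiled on 20 Affymetrix arrays in 9 groups of 2 or 3. Small RNA amounts were amplified in 2 rounds before labelling, per the labels' protocols. The authors deposited intensity values per probe set after RMA, per the submitters' processing notes; the values are on a linear scale, so log2 was taken first, although log2 values had been assumed when the tests were laid out. Of 45101 probe sets, 34958 had 1 gene symbol, 932 several and 9211 none here, and 34754 were matched by Entrez ID. Each gene was read from its probe set of highest mean, and the 13479 genes that exceeded the median of 2 or more arrays were tested. One limma model (limma 3.58.1, R 4.3.3, eBayes with an intensity trend) covered every array and group, leaving 11 degrees of freedom, with Benjamini-Hochberg adjustment over all genes tested. The number of arrays limits the precision. No 2 arrays held identical values. The members and lists were chosen with earlier results of these data known. Genes named were those called, up to 10 per direction, with at most 3 of the largest not called; in each family the 3 genes of widest range over group means were given on every array, and others were added where a result turned on them. Alternatives changed the filter, the probe set rule, the normalization, the arrays fitted and the weights, and left out each array in turn. The fit was tested on simulated data.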

Additional observations from a re-analysis of the deposited data

How the results depend on the processing

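Of 227 called differences of single genes, 151 kept their direction and call under every alternative run and 224 kept their direction; over the 3180 values 2900 were called the same way, 277 lost the call and 3 reversed. The reversed ones were Nr4a3 in CD4 T cells minus CLP (0.021) and NK Ets1++ minus CLP (0.030) with the mean of probe sets, and Egr1 in pro-B cells minus CLP (0.13) with CLP array 2 alone. Egr3, not called on its brighter probe set, was called with the mean of probe sets in 5 comparisons, with the opposite sign, and with housekeeping centring in 3, with the same sign. Counts of called genes moved most where few were called. For MPP minus HSC, 2 genes were called, against 1 with no filter, 1 with repeated quantile normalization, 4 with housekeeping centring, 0 with the compared arrays alone and 1 with array weights. For the NK genotypes the count of 1 became 2 with the mean of probe sets, 7 with the compared arrays alone and 5 with array weights. For LMPP minus MPP the count of 2 became 4 with the compared arrays alone and 4 with array weights, and for pro-B minus CLP the count of 16 became 9 with the compared arrays alone. Leaving out 1 array at a time gave 0 to 1 calls for the NK genotypes, 0 to 5 for MPP minus HSC, 0 to 1 for LMPP minus MPP, 23 to 30 for CLP minus LMPP, 27 to 31 for GMP minus LMPP, 12 to 18 for pro-B minus CLP, 22 to 27 for CD4 T minus CLP, 18 to 26 for NK Ets1++ minus CLP, 9 to 11 for NK Ets1++ minus CD4 T, 15 to 17 for CD4 T minus pro-B, 22 to 31 for CD4 T minus HSC, 24 to 29 for pro-B minus LMPP and 37 for the F test. Where this left 1 array in a group, that array was assumed to vary like the other groups.

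Deviations of same-numbered arrays correlated at -0.194 to 0.369, over 0.1 in 5 of 36 pairs of groups. The highest were HSC with CLP (0.369), HSC with MPP (0.368) and MPP with CLP (0.250). These values do not settle whether the replicate numbers pair the samples. With the replicate block the counts were 1 for the NK genotypes, 3 for MPP minus HSC, 2 for LMPP minus MPP, 28 for CLP minus LMPP, 31 for GMP minus LMPP, 16 for pro-B minus CLP, 27 for CD4 T minus CLP, 25 for NK Ets1++ minus CLP, 12 for NK Ets1++ minus CD4 T, 23 for CD4 T minus pro-B, 28 for CD4 T minus HSC and 37 for the F test. The cause of these shifts was not tested. Signals at or below the array median, such as Fosb outside HSC, MPP, LMPP and pro-B cells, carry little information on the size of a fall.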
